A study of Mus musculus with 11 samples.

Results

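DNA replication and S-phase genes were followed as a list of 41 mouse genes, whose rule is their role in replication and uses no measured value, although they were chosen with earlier results of these data known. All 41 symbols had an Entrez identifier among the 27179 in the count table, and all 41 were among the 17370 genes that passed the filter on low counts. The cells came from female C57BL/6 mice carrying an E-cadherin-GFP reporter and were taken at 5 weeks of age, in puberty, with no treatment in any group. Terminal end buds (TEBs), the growing tips of the ductal tree, were microdissected apart from the ducts, and lineage-negative CD29+CD24+ cells were sorted as luminal (high GFP) or basal (low GFP). The 11 RNA-seq libraries were 3 from basal duct, 3 from basal TEB, 2 from luminal duct and 3 from luminal TEB, each from a pool of at least 2 mice. A luminal duct sample had been discarded for low cell numbers, so the luminal duct libraries are replicates 1 and 3. The sort does not separate luminal progenitor from mature luminal cells, nor the outer cap cells of the end bud from other basal cells, and each value is an average over the pool. In such bulk samples, fewer cycling cells and less RNA of a gene per cycling cell cannot be told apart.

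A cell prepares for S phase in G1, when the origin recognition complex, Cdc6 and Cdt1 load the MCM2-7 ring onto origins and geminin prevents a further loading in the same cycle. Cdc45 and the GINS tetramer then turn the ring into an active helicase, primase and the polymerases copy the strands around the PCNA clamp, and Fen1 and Lig1 join the lagging-strand fragments. Many of these genes are transcribed at the G1/S border by E2F factors, once the retinoblastoma protein has been inactivated. Cyclin E and CDK2 take part in that inactivation, and end buds are known as the most proliferative epithelium of the pubertal gland.

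The promoters of the 5 genes that rose in luminal TEBs at an FDR below 0.05 are shown first, since E2F and CCAAT-box motifs are described for genes of this kind. The sequences are RefSeq's on GRCm38.p6 (mm10), 5′ to 3′ on the strand of the gene, and end at the base before the gene. Mcm3 (Entrez 17215) is on the minus strand at chr1:20820313-20820462, Mcm6 (17219) on the minus strand at chr1:128359706-128359855, Mcm5 (17218) on the plus strand at chr8:75109359-75109467, Rrm2 (20135) on the plus strand at chr12:24708104-24708253 and Chaf1a (27221) on the plus strand at chr17:56040266-56040415. Each stretch holds 150 bases, or 109 for Mcm5, where another transcript starts 41 bases before the start site tabulated. Capitals mark matches to the E2F letters, searched as TTNNCGC with a middle pair made of C and G only, and to the CCAAT box, searched as CCAAT. Either strand was searched, and overlapping matches form a single run of capitals.
Mcm3: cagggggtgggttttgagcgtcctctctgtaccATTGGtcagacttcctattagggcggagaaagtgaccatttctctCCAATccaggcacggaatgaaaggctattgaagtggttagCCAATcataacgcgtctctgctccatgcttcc
Mcm5: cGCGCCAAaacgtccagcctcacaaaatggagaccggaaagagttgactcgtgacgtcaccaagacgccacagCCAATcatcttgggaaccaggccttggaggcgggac
Mcm6: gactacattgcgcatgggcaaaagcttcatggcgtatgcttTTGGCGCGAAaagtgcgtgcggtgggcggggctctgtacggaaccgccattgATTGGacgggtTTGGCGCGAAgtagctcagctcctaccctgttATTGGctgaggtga
Rrm2: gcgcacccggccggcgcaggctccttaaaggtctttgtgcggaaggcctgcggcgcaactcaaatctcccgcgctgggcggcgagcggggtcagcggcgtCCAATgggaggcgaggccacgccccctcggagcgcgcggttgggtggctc
Chaf1a: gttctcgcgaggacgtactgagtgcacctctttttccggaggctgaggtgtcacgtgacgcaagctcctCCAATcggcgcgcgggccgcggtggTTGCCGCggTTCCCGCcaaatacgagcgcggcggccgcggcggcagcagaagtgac

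In these stretches the E2F letters occurred 4 times in Mcm6, as 2 pairs of overlapping matches on opposite strands, 2 times in Chaf1a and 1 time in Mcm5. None were printed for Mcm3 and Rrm2, whose matches lay outside the stretch, at 19 to 42 bases after the start site in Mcm3 and 235 bases before it in Rrm2. CCAAT boxes numbered 3 in Mcm3, 2 in Mcm6 and 1 in each of Mcm5, Rrm2 and Chaf1a. Promoters running from 250 bases before to 50 bases after a start site were tabulated for 32 of the 41 genes, 36 promoters in all. E2F letters were found in 63.9% of these 36 promoters, against 9.57% of all 32851 promoters and 12.1% of those of protein-coding genes. The CCAAT box was present in 55.6% of them, against 37.4% of all. The CHR letters, searched on both strands as TTTGAA and also as TTCGAA, an element known from genes of G2 and mitosis, were in 16.7% of the replication promoters against 19.2% of all, whereas 73.9% of 23 promoters of a list of mitosis genes held them. Among those 23 promoters 13% held the E2F letters. A match is only a run of letters, and no binding was measured. Gmnn, Ccne2, Pole, Prim2, Gins4, Mcm4, Rfc2, Gins2 and Gins1 had no entry.

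Deposited totals ran from 27989137 to 49221436 read-pair counts per library. Genes of the mitochondrial chromosome took 4.34% to 10.9% of the counts in 8 libraries, and 17.8% in basal TEB replicate 3, 28.5% in luminal duct replicate 3 and 37.5% in basal TEB replicate 1, the shallowest library. All 7 basal markers (such as Krt5 and Acta2) were higher in basal cells, and all 9 luminal markers (such as Krt8 and Prlr) in luminal cells, in both structures at an FDR below 0.05 by edgeR's quasi-likelihood test. Luminal duct replicate 3 also held more counts of markers of other cells than the other 4 luminal libraries. Its summed level was 249.7 CPM for 6 fibroblast markers, against 6.03 to 53.1, and 200.2 CPM for 7 immune markers, against 5.78 to 18.7. Its endothelial and adipocyte sums were 26.2 and 75.1 CPM, and Cd3e, Emcn, Adipoq, Plin1 and Lep were at 0 in it. Basal duct replicate 2 had the highest such sums among basal libraries, with 839.6 CPM for fibroblast, 175 CPM for endothelial and 181 CPM for adipocyte markers. Of that adipocyte sum, 178.7 CPM came from Fabp4, and Adipoq and Plin1 were at 0 in this library. Changes without luminal duct replicate 3 in luminal cells, or without basal duct replicate 2 or basal TEB replicate 1 in basal cells, are given for many, but not all, of the genes that these libraries moved.

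Levels are CPM values (the counts of a gene over the TMM-scaled total of its library), listed in the order of the replicates, and a difference is given as a log2 fold change ± its standard error. A gene is said to have risen or fallen only at an FDR (Benjamini-Hochberg adjusted p over the 17370 genes, from edgeR's quasi-likelihood test on 1 model of the 4 groups) below 0.05. These p-values measure the spread between the pools. The summed level of the 41 genes was 1113 and 1185 CPM in luminal duct and 2286, 2258 and 2609 CPM in luminal TEB. In basal cells the sums were 1604, 911 and 1432 CPM in duct and 1708, 2085 and 2193 CPM in TEB. All TEB sums thus lay above all duct sums within each cell type, and basal duct replicate 2 had the lowest sum of all. The mean log2 CPM over the 41 genes overlapped in basal cells. It was 4.56 in basal TEB replicate 1, below 4.72 and 4.64 in basal duct replicates 1 and 3. In luminal cells that mean was separate too, at 4.15 and 3.92 in duct and 5.18 to 5.39 in TEB.

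In luminal cells, 5 of the 41 genes rose from duct to TEB (Mcm3, Mcm5, Mcm6, Rrm2 and Chaf1a) and none fell, where 0.639% of all genes tested rose and 0.771% fell. Of the 41, 38 had a positive change, and the median change was 1.2 on the log2 scale (2.30-fold), against 0.04 over all genes. At an unadjusted p below 0.05, 27 were higher in TEBs, against 8.38% of all genes. The 3 TEB libraries lay above both duct libraries for 35 genes, against 26.2% of all genes. Gins4, Rfc2 and Rpa3 had negative changes. Without luminal duct replicate 3, all 41 changes were positive and the median was 1.13, against 0.09 over all genes. There, 8 changes turned sign or came closer to 0 by more than 1.5 times and 5 grew by more than that. When luminal duct replicate 1 was left out, 36 changes were positive and the median was 1.16, against 0.21 over all genes. In both cases the lone duct library is assumed to vary like the other groups, so genes called are not counted. Leaving out any 1 of the luminal TEB libraries gave 0 calls, with medians from 1.14 to 1.2. In those fits 0.0754% to 0.104% of all genes rose.

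In basal cells, 0 of the 41 genes passed the FDR of 0.05 by edgeR's quasi-likelihood test, where 0.167% of all genes rose and 1.16% fell. The lowest FDR was 0.0861, for Chaf1b. At an unadjusted p below 0.05, 18 of the 41 were higher in TEBs, against 6.62% of all genes, and 0 were lower, against 7.84%. The likelihood ratio test of edgeR called 6, where 1.21% of all genes were called higher in TEBs. The Wald test of DESeq2 called 7, where 1.30% of all genes were, and limma voom called 1, where 1.08% were. The median change was 0.72 (1.64-fold), against -0.03 over all genes, and 39 changes were positive, with Pola1 and Ccne2 negative. Groups were separate, with TEBs higher, for 18 genes, against 8.88% of all genes. Without basal TEB replicate 1, the median was 0.74, all 41 changes were positive and 0 genes were called. Without basal duct replicate 2, the median fell to 0.41, against 0 over all genes, 37 changes were positive, and 20 of the 41 came closer to 0 by more than 1.5 times or changed sign.

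Other measures moved along with these comparisons. The sum of the 7 basal markers was 15553 to 19176 CPM in basal duct and 5342 to 8297 CPM in basal TEB. Of these markers 4 fell in basal cells, where 1.16% of all genes did. In luminal cells the sum was 93.0 and 248 CPM in duct and 14.7 to 27.3 CPM in TEB, and 6 of the 7 markers fell, where 0.771% of all genes did. The mitochondrial share was 8.51% and 28.5% in luminal duct and 4.34% to 4.77% in luminal TEB. Whether these shifts play a part in the levels of the replication genes was not tested.

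**Figure D1:**
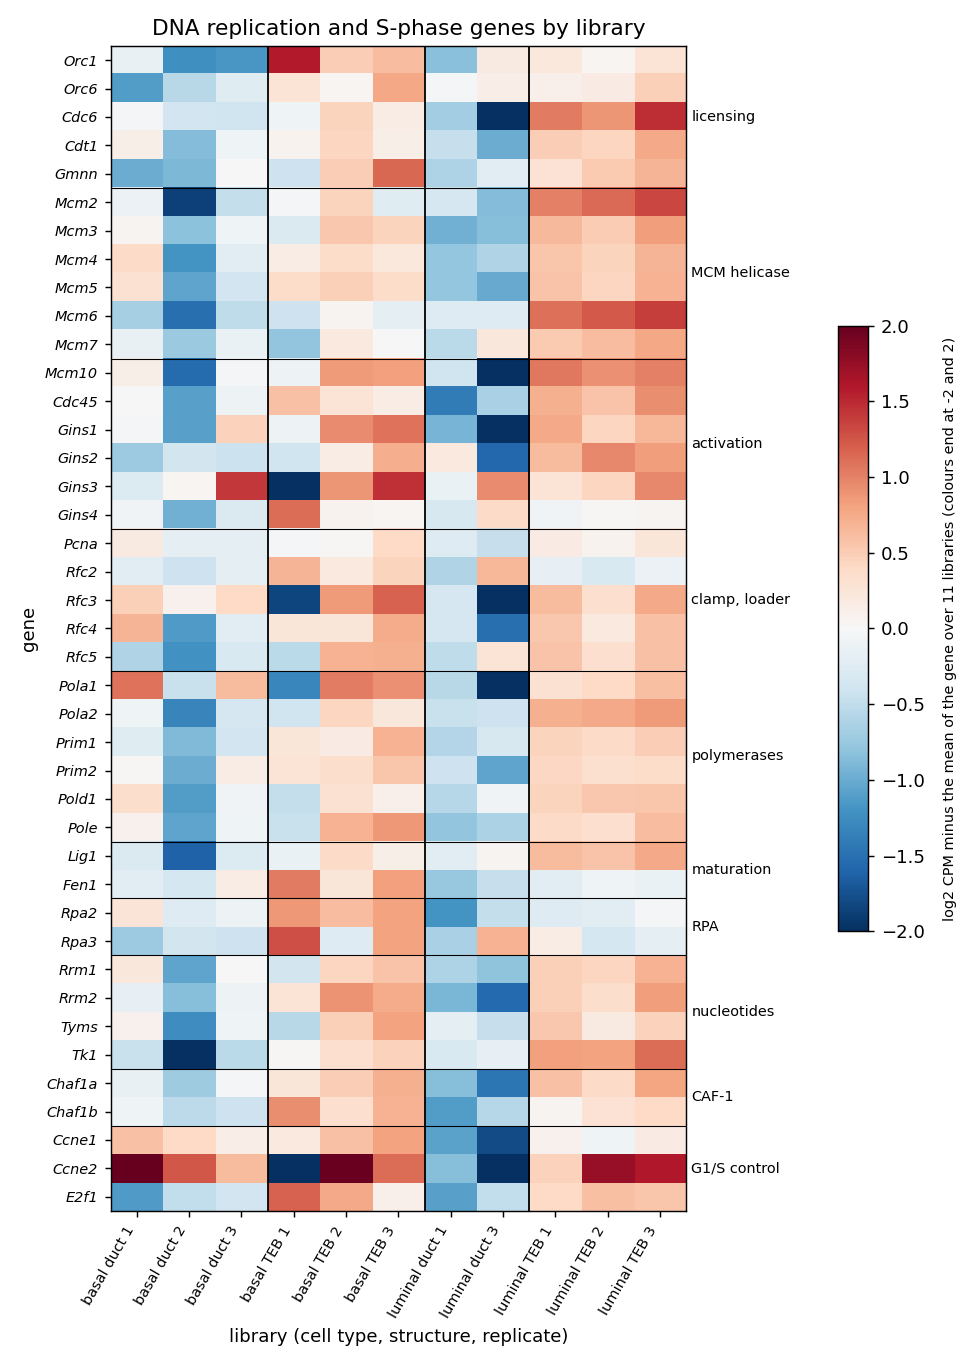
Level of each of the 41 genes in the 11 libraries, as log2 CPM minus the mean of the gene over the libraries, with genes on the vertical axis grouped by role and libraries on the horizontal axis. The luminal TEB columns are red for most genes, the luminal duct columns and basal duct replicate 2 are mostly blue, and Rfc2 and Rpa3 are red in luminal duct replicate 3.

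**Figure D2:**
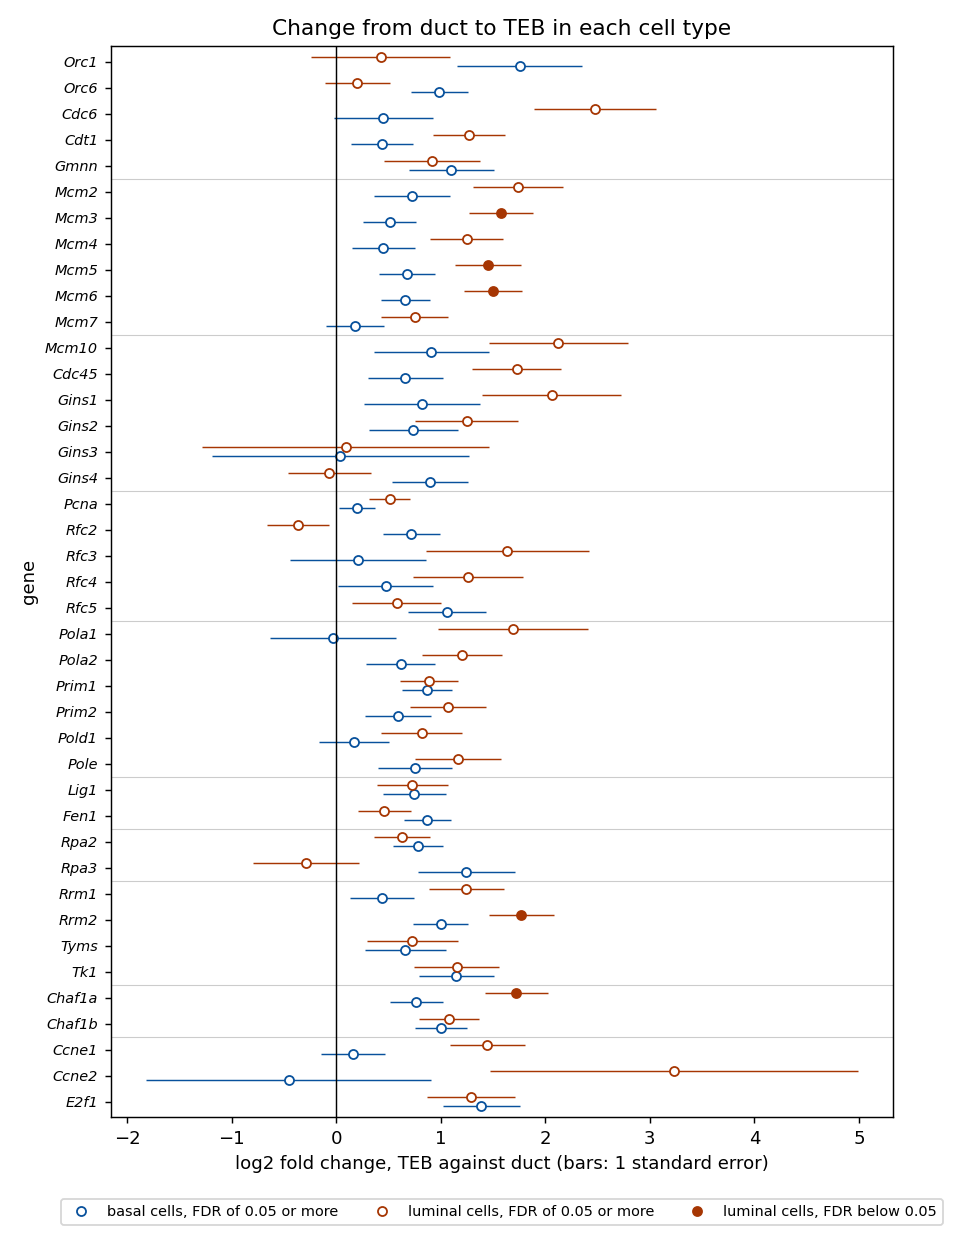
Log2 fold change of TEB against duct for each gene in basal cells (blue) and luminal cells (brown), with bars of 1 standard error. Filled points mark the 5 genes with an FDR below 0.05, all in luminal cells, and 38 luminal and 39 basal points lie to the right of 0.

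Among the 5 licensing genes, none passed the threshold in either cell type, and all 5 changes were positive in both, with medians of 0.91 in luminal and 0.99 in basal cells. Cdc6 is the loader that recruits the MCM ring to origins together with ORC. Its levels were 8.54, 6.63 and 6.57 CPM in basal duct, 8.14, 11.9 and 9.63 in basal TEB, 5.35 and 1.60 in luminal duct and 18, 16 and 24.3 in luminal TEB. Both luminal duct libraries lay below all the others, and replicate 3, with 39 counts, was the lowest. Its change was 2.48 ± 0.59 in luminal cells (edgeR quasi-likelihood FDR 0.0634) and 0.45 ± 0.47 in basal cells (FDR 0.719), the largest luminal change of the licensing genes. The luminal change was 1.86 without luminal duct replicate 3 and 3.60 without replicate 1. Orc1, the largest subunit of the origin recognition complex, had the opposite order. It was measured at 5.11, 2.39 and 2.51 CPM in basal duct, 17.1, 8.02 and 8.74 in basal TEB, 3.14 and 6.42 in luminal duct and 6.55, 5.81 and 6.84 in luminal TEB. All basal TEB libraries exceeded all basal duct libraries, with basal TEB replicate 1 far above the other two, while the luminal groups overlapped. The change of Orc1 was 1.75 ± 0.60 in basal cells (edgeR quasi-likelihood FDR 0.216) and 0.42 ± 0.66 in luminal cells (FDR 0.792), or 1.33 in basal cells without basal TEB replicate 1 and 1.02 in luminal cells without luminal duct replicate 3. It overlaps Prpf38a by 3632 bases, and the library kit does not keep the strand.

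Geminin (Gmnn), which binds Cdt1 and blocks relicensing, was the licensing gene with the highest level per length. Its levels were 9.70, 10.3 and 19.4 CPM in basal duct, 14.5, 27.1 and 42.8 in basal TEB, 12.6 and 16.6 in luminal duct and 23.5, 27.8 and 31 in luminal TEB. The luminal groups were separate, whereas basal duct replicate 3 exceeded basal TEB replicate 1. Its changes were 0.91 ± 0.46 in luminal cells (edgeR quasi-likelihood FDR 0.342) and 1.10 ± 0.41 in basal cells (FDR 0.247). Cdt1, the partner of Cdc6 in MCM loading, ran from 11.3 to 16.4 CPM in luminal duct and from 30.5 to 37.9 CPM in luminal TEB, a change of 1.27 ± 0.35 (edgeR quasi-likelihood FDR 0.0959). In basal cells the Cdt1 groups overlapped (0.44 ± 0.30, edgeR quasi-likelihood FDR 0.54), and the change was as low as 0.20 with a library left out. Orc6, the smallest ORC subunit, had the larger of its changes in basal cells, with separate groups there (0.99 ± 0.28, FDR 0.124) and overlapping groups in luminal cells (0.20 ± 0.31, FDR 0.782).

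The MCM2-7 helicase held 3 of the 5 genes that rose. All 6 subunits were separate between luminal duct and luminal TEB, and their summed level went from 347 and 375 CPM to between 876 and 1026 CPM. In basal cells the summed level overlapped, at 495, 228 and 412 CPM in duct and 460, 634 and 550 CPM in TEB. Mcm6 was the most abundant subunit per length. Its levels were 89.2, 49.4 and 99.4 CPM in basal duct, 105, 146 and 125 in basal TEB, 118 and 118 in luminal duct and 301, 331 and 369 in luminal TEB. All luminal TEB libraries lay far above every other library, and the 2 luminal duct libraries were nearly equal. Mcm6 rose 2.82-fold in luminal TEBs (1.5 ± 0.28, edgeR quasi-likelihood FDR 0.0269), and its change was 0.66 ± 0.24 in basal cells (FDR 0.234), where the groups were separate. Without luminal duct replicate 3, its luminal change was 1.5 with an FDR of 0.102 by the same test.

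Mcm3 was measured at 74.9, 41.1 and 68.2 CPM in basal duct, 59, 105 and 98.4 in basal TEB, 37 and 40.2 in luminal duct and 113, 103 and 129 in luminal TEB. Luminal duct held the lowest levels and luminal TEB the highest, although basal TEB replicate 2 exceeded luminal TEB replicate 2. It rose 2.98-fold in luminal TEBs (1.58 ± 0.30, edgeR quasi-likelihood FDR 0.0302), and overlapped between the basal groups (0.51 ± 0.26, FDR 0.393). Mcm5, which forms the gate of the ring with Mcm2, was at 104, 40.3 and 64 CPM in basal duct, 108, 116 and 108 in basal TEB, 49 and 41.7 in luminal duct and 124, 113 and 135 in luminal TEB. Basal TEB libraries were close to each other and to those of luminal TEB, and the basal duct libraries were spread. Its rise in luminal cells was 2.74-fold (1.45 ± 0.32, edgeR quasi-likelihood FDR 0.0487), and in basal cells the groups were separate but the test did not pass (0.68 ± 0.27, FDR 0.287). Without luminal duct replicate 3 the luminal changes of Mcm3 and Mcm5 were 1.63 and 1.34, with FDRs of 0.104 and 0.196 by edgeR's quasi-likelihood test.

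Mcm2 had the largest change of the subunits in both cell types. Its levels were 44.8, 13.2 and 34.9 CPM in basal duct, 47.2, 65.7 and 40.9 in basal TEB, 38.5 and 26.6 in luminal duct and 97.9, 107 and 122 in luminal TEB. The luminal TEB libraries were above all the others, and basal duct replicate 2 was the lowest. Its change was 1.74 ± 0.43 in luminal cells (edgeR quasi-likelihood FDR 0.0727) and 0.73 ± 0.36 in basal cells (FDR 0.388). Without basal duct replicate 2 the basal change of Mcm2 was 0.36, and those of Mcm3, Mcm4, Mcm5 and Mcm6 were 0.29, 0.13, 0.40 and 0.41. The luminal change of Mcm2 without luminal duct replicate 3 was 1.5 by the same test. Mcm4 was separate between luminal groups (1.25 ± 0.35, edgeR quasi-likelihood FDR 0.101) and overlapped in basal cells (0.45 ± 0.30, FDR 0.525). The smallest changes were those of Mcm7, which holds 3 miRNA genes in its range, at 0.75 ± 0.32 in luminal cells (edgeR quasi-likelihood FDR 0.265) and 0.18 ± 0.28 in basal cells (FDR 0.827), or 1.18 in luminal cells without luminal duct replicate 3.

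**Figure D3:**
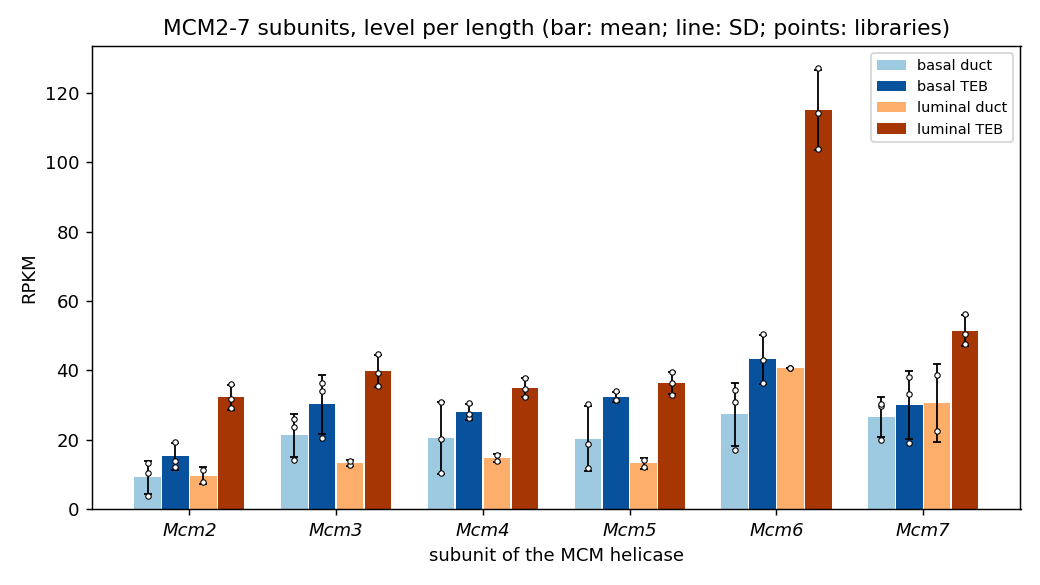
Level per length (RPKM) of the 6 MCM subunits in the 4 groups, with bars for the mean, lines for the SD and points for libraries. Mcm6 stands out in luminal TEB, at 115 ± 11.7 RPKM (SD, n = 3), against 40.8 in luminal duct, 43.2 in basal TEB and 27.4 in basal duct.

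Among the 6 genes that activate the helicase, 5 had positive changes in luminal cells and all 6 in basal cells, none past the threshold. Mcm10, which helps the loaded helicase to start, had the largest change of these genes in both cell types. It was at 17.1, 5.34 and 15.2 CPM in basal duct, 14.7, 28.2 and 27.7 in basal TEB, 11.9 and 2.39 in luminal duct and 32.5, 29.5 and 31.6 in luminal TEB. Luminal duct replicate 3 was the lowest and basal duct replicate 2 followed, and all luminal TEB libraries were above all the others. The change of Mcm10 was 2.12 ± 0.67 in luminal cells (edgeR quasi-likelihood FDR 0.14) and 0.91 ± 0.55 in basal cells (FDR 0.481). Its luminal change was 1.39 without luminal duct replicate 3 (edgeR quasi-likelihood FDR 0.435) and 3.71 without replicate 1 (FDR 0.0164), and its basal change was 0.55 without basal duct replicate 2. Gins2, a GINS subunit and the activation gene with the highest level per length, was measured at 11.3, 14.4 and 13.7 CPM in basal duct, 14, 20.6 and 30.9 in basal TEB, 21.3 and 6.21 in luminal duct and 28.9, 36.2 and 33.1 in luminal TEB. The luminal groups were separate, with luminal duct replicate 3 well below replicate 1. Its changes were 1.25 ± 0.49 in luminal cells (edgeR quasi-likelihood FDR 0.229) and 0.74 ± 0.42 in basal cells (FDR 0.449). The luminal change of Gins2 was 0.62 without luminal duct replicate 3 and 2.40 without replicate 1. It overlaps Gse1 by 118 bases.

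Cdc45, the remaining part of the active helicase besides MCM and GINS, was at 5.78 and 9.83 CPM in luminal duct and at 22.9 to 29.3 CPM in luminal TEB, a change of 1.72 ± 0.43 (edgeR quasi-likelihood FDR 0.0733). Its basal groups were separate as well, at 0.66 ± 0.36 (edgeR quasi-likelihood FDR 0.425), and the basal change was as low as 0.39 with a library left out. Gins1 changed by 2.06 ± 0.67 in luminal cells (edgeR quasi-likelihood FDR 0.15), from levels of 1.64 and 4.03 CPM in duct, and by 1.56 without luminal duct replicate 3. For Gins3 both comparisons were near 0 and wide (0.09 ± 1.37 in luminal and 0.04 ± 1.23 in basal cells), with 0 counts in basal TEB replicate 1, which allows up to 0.173 CPM, and 124 or more counts in the other 10 libraries. Gins4 was highest in that same library, at 47.6 CPM, against 11.3 to 28.5 CPM elsewhere. Its change was 0.90 ± 0.36 in basal cells (edgeR quasi-likelihood FDR 0.287) and -0.07 ± 0.40 in luminal cells (FDR 0.968), where its sign was not fixed, at 0.32 without luminal duct replicate 3. Without basal TEB replicate 1 the basal change of Gins4 was 0.46.

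None of the 5 genes of the sliding clamp and its loader passed the threshold, and the median change was 0.58 in luminal and 0.47 in basal cells. Pcna, the clamp that tethers the polymerases, had the highest level per length of all 41 genes. The mean of its 4 group means was 126.7 RPKM, against 56.6 for Mcm6 in the next place. Its levels were 182, 142 and 142 CPM in basal duct, 159, 164 and 212 in basal TEB, 135 and 117 in luminal duct and 179.6, 169 and 190.4 in luminal TEB. All luminal TEB libraries exceeded both luminal duct libraries, and the basal groups overlapped. The change of Pcna was 0.51 ± 0.19 in luminal cells (edgeR quasi-likelihood FDR 0.215) and 0.20 ± 0.17 in basal cells (FDR 0.652). A pair of Pcna pseudogenes exists in the annotation, so its counts may be split. Rfc3, a subunit of the clamp loader, had a larger luminal change with a wide error. This gene was at 19.2, 14.6 and 18.3 CPM in basal duct, 3.81, 25 and 31.1 in basal TEB, 10.9 and 2.34 in luminal duct and 21.5, 17.3 and 23.3 in luminal TEB. Basal TEB replicate 1 and luminal duct replicate 3, the libraries with the highest mitochondrial shares, were the lowest for Rfc3. Its change was 1.64 ± 0.78 in luminal cells (edgeR quasi-likelihood FDR 0.315) and 0.21 ± 0.65 in basal cells (FDR 0.932). Leaving out luminal duct replicate 3 gave a luminal change of 0.93, and without basal TEB replicate 1 the basal change was 0.70.

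Rfc5, another loader subunit, had the largest basal change of this group. Its levels were 14.5, 9.45 and 17.7 CPM in basal duct, 15.1, 35.8 and 35.9 in basal TEB, 15.3 and 26.4 in luminal duct and 32.6, 27.8 and 33 in luminal TEB. In basal cells, TEB replicates 2 and 3 were above all ducts but replicate 1 was not, and in luminal cells the groups were separate. The change was 1.06 ± 0.38 in basal cells (edgeR quasi-likelihood FDR 0.229) and 0.58 ± 0.42 in luminal cells (FDR 0.51), or 1.02 in luminal cells without luminal duct replicate 3. Rfc2, a further subunit and a gene of high level per length, went the other way in luminal cells. It was measured at 52.5, 45.3 and 53.5 CPM in basal duct, 97.1, 69 and 82.8 in basal TEB, 40.1 and 96.6 in luminal duct and 53.9, 49.3 and 55.6 in luminal TEB. Luminal duct replicate 3 was far above replicate 1, and the luminal TEB libraries lay between them, so the luminal change of -0.37 ± 0.30 (edgeR quasi-likelihood FDR 0.56) depends on that library. Without it the change was 0.40, and without replicate 1 it was -0.87. The basal groups of Rfc2 were separate, with TEBs higher (0.72 ± 0.27, edgeR quasi-likelihood FDR 0.265). Rfc4 changed by 1.26 ± 0.53 in luminal cells (edgeR quasi-likelihood FDR 0.263) and by 0.47 ± 0.46 in basal cells (FDR 0.69), which became 0.79 without luminal duct replicate 3 and 0.13 without basal duct replicate 2.

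The 6 polymerase and primase genes were all separate between luminal duct and luminal TEB, with a median change of 1.11, and none passed the threshold in either cell type. Prim1, the catalytic subunit of primase, was the most abundant of them per length. Its levels were 26.2, 16.7 and 23.7 CPM in basal duct, 36.5, 34.5 and 50.3 in basal TEB, 20.6 and 24.8 in luminal duct and 42.2, 40.3 and 43.3 in luminal TEB. Both comparisons were separate, and luminal TEB libraries were close together. Its change was 0.89 ± 0.27 in luminal cells (edgeR quasi-likelihood FDR 0.133) and 0.87 ± 0.24 in basal cells (FDR 0.121), nearly the same size in both. Pola1, the catalytic subunit of polymerase alpha, had the only negative basal change of these 6 genes. It was at 56.6, 19.6 and 41.5 CPM in basal duct, 10.8, 54 and 50.2 in basal TEB, 18.1 and 4.19 in luminal duct and 32.9, 35.2 and 40.5 in luminal TEB. The lowest levels were in luminal duct replicate 3 and basal TEB replicate 1, and the other basal TEB libraries overlapped basal duct. The change was 1.69 ± 0.72 in luminal cells (edgeR quasi-likelihood FDR 0.267) and -0.03 ± 0.60 in basal cells (FDR 1). The luminal change of Pola1 without luminal duct replicate 3 was 1.00 (edgeR quasi-likelihood FDR 0.727), without luminal duct replicate 1 it was 3.11, and without basal TEB replicate 1 the basal change was 0.42.

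Pola2, the accessory subunit of polymerase alpha, changed by 1.2 ± 0.38 in luminal cells (edgeR quasi-likelihood FDR 0.142) and 0.61 ± 0.33 in basal cells (FDR 0.417). Prim2, the regulatory subunit of primase, changed by 1.07 ± 0.36 in luminal cells (edgeR quasi-likelihood FDR 0.168) and 0.59 ± 0.31 in basal cells (FDR 0.415). Pole, the catalytic subunit of the leading-strand polymerase epsilon, had a luminal change of 1.16 ± 0.41 and a basal one of 0.75 ± 0.36. Pold1, that of the lagging-strand polymerase delta, had the smallest luminal change of this group, 0.82 ± 0.39, and 0.17 ± 0.34 in basal cells. For all 4, basal duct replicate 2 was the lowest basal library, and without it their basal changes were 0.33 for Pola2, 0.31 for Prim2, 0.48 for Pole and -0.15 for Pold1.

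Of the genes of lagging-strand maturation and of the single-strand binding protein RPA, none passed the threshold for TEB against duct. Fen1, the flap endonuclease, was measured at 45.5, 42 and 59.1 CPM in basal duct, 110.01, 63.3 and 94.5 in basal TEB, 31.4 and 38.7 in luminal duct and 45.4, 50.2 and 48.8 in luminal TEB. Basal TEB held the 3 highest levels, all above basal duct, and the luminal groups were separate by a small margin. The change was 0.87 ± 0.22 in basal cells (edgeR quasi-likelihood FDR 0.101) and 0.46 ± 0.25 in luminal cells (FDR 0.38). Lig1, the ligase that seals the fragments, was at 54.5, 21.5 and 54.8 CPM in basal duct, 60.5, 86.7 and 72.2 in basal TEB, 57.4 and 68.9 in luminal duct and 102, 98.7 and 112 in luminal TEB. It was separate in both cell types, with luminal TEB the highest. Its change was 0.75 ± 0.30 in basal cells (edgeR quasi-likelihood FDR 0.287) and 0.73 ± 0.34 in luminal cells (FDR 0.31), and the basal change was 0.42 without basal duct replicate 2. In TEBs the basal libraries lay above the luminal ones for Fen1 and below them for Lig1.

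Rpa2, the middle subunit of RPA, was at 38.1, 26.8 and 29.9 CPM in basal duct, 58.4, 49.2 and 55.7 in basal TEB, 13.9 and 23 in luminal duct and 26.8, 27.3 and 31.3 in luminal TEB. Basal TEB libraries were the highest and both comparisons were separate. The change was 0.78 ± 0.24 in basal cells (edgeR quasi-likelihood FDR 0.159) and 0.63 ± 0.27 in luminal cells (FDR 0.273), or 1.03 in luminal cells without luminal duct replicate 3. Rpa3, the small subunit, varied more between libraries. Its levels were 7.84, 9.998 and 9.70 CPM in basal duct, 31.7, 10.9 and 22.7 in basal TEB, 8.19 and 21.1 in luminal duct and 14.4, 10.2 and 11.3 in luminal TEB. In basal TEB the replicates differed widely, and luminal duct replicate 3 exceeded every luminal TEB library. Its change was 1.24 ± 0.46 in basal cells (edgeR quasi-likelihood FDR 0.253) and -0.29 ± 0.51 in luminal cells (FDR 0.82). Without luminal duct replicate 3, the luminal change of Rpa3 was 0.54 in place of a negative value.

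Of the 4 nucleotide supply genes, Rrm2 rose in luminal TEBs. Rrm2 is the S-phase-limited small subunit of ribonucleotide reductase, and it was measured at 47.4, 29.5 and 49.5 CPM in basal duct, 64.4, 99.2 and 89.1 in basal TEB, 28.1 and 18.1 in luminal duct and 73.8, 67.6 and 94.9 in luminal TEB. TEB libraries were above duct libraries in both cell types, luminal duct was lowest, and the 2 kinds of TEB overlapped. It rose 3.41-fold in luminal cells (1.77 ± 0.31, edgeR quasi-likelihood FDR 0.022), and its change was 1.00 ± 0.26 in basal cells (FDR 0.108). Without luminal duct replicate 3 the luminal change was 1.49 (edgeR quasi-likelihood FDR 0.105). Rrm1, the large subunit, was at 128, 52.3 and 110.2 CPM in basal duct, 84.9, 146 and 162 in basal TEB, 71.4 and 62.7 in luminal duct and 152, 147 and 177 in luminal TEB. The luminal groups were separate, the basal ones overlapped, and the change was 1.24 ± 0.36 in luminal cells (edgeR quasi-likelihood FDR 0.113) and 0.44 ± 0.31 in basal cells (FDR 0.559), where it was 0.14 without basal duct replicate 2.

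Tk1, the salvage kinase for thymidine, had the largest basal change of these 4 genes. Its levels were 23.3, 7.21 and 21.8 CPM in basal duct, 32.3, 40.3 and 43.6 in basal TEB, 25.7 and 28.4 in luminal duct and 56, 55.6 and 68.7 in luminal TEB. The groups were separate in both cell types, and basal duct replicate 2 was by far the lowest. Its change was 1.15 ± 0.36 in basal cells (edgeR quasi-likelihood FDR 0.172) and 1.15 ± 0.41 in luminal cells (FDR 0.185), and the basal change was 0.78 without basal duct replicate 2. Tyms, thymidylate synthase, changed by 0.73 ± 0.44 in luminal cells (edgeR quasi-likelihood FDR 0.419) and 0.66 ± 0.38 in basal cells (FDR 0.458), with separate groups only in luminal cells. The basal change of Tyms was as low as 0.35 with a library left out, and a transcribed pseudogene of Tyms is annotated.

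CAF-1 deposits histones on newly made DNA, and its largest subunit, Chaf1a, had the lowest luminal FDR of the 41 genes. Chaf1a was at 30.6, 20.8 and 33.5 CPM in basal duct, 40.5, 47.8 and 56 in basal TEB, 18.8 and 12.4 in luminal duct and 51.1, 44.4 and 59.2 in luminal TEB. TEBs were above ducts in both cell types, and luminal duct was lowest. It rose 3.30-fold in luminal cells (1.72 ± 0.30, edgeR quasi-likelihood FDR 0.0206), and its basal change was 0.76 ± 0.25 (FDR 0.198). Without luminal duct replicate 3 the luminal value was 1.46 (edgeR quasi-likelihood FDR 0.0886). Chaf1b, the middle subunit, was at 27.7, 20.4 and 21.9 CPM in basal duct, 56.2, 37.1 and 47.4 in basal TEB, 13.5 and 19.7 in luminal duct and 30.6, 36 and 38.6 in luminal TEB. It was separate in both cell types too. Its change was 1.01 ± 0.25 in basal cells (edgeR quasi-likelihood FDR 0.0861) and 1.08 ± 0.29 in luminal cells (FDR 0.0859), and this was the lowest basal FDR among the 41.

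None of the 3 genes of G1/S control passed the threshold for TEB against duct. Ccne1, which encodes a cyclin E that drives CDK2, was at 24.1, 21.2 and 17.7 CPM in basal duct, 18.4, 24.1 and 27.9 in basal TEB, 7.62 and 4.61 in luminal duct and 17.1, 15.1 and 18 in luminal TEB. The luminal duct libraries were the lowest, and the other 9 libraries lay between 15.1 and 27.9 CPM. Its change was 1.45 ± 0.36 in luminal cells (edgeR quasi-likelihood FDR 0.0754) and 0.16 ± 0.31 in basal cells (FDR 0.872). Ccne2, the other cyclin E, had few counts in some libraries. Its levels were 10.8, 5.60 and 3.64 CPM in basal duct, 0.0577, 9.33 and 5.15 in basal TEB, 1.27 and 0 in luminal duct and 3.23, 7.94 and 7.20 in luminal TEB. Luminal duct replicate 3 had 0 counts, which allows up to 0.123 CPM, basal TEB replicate 1 had 1 count, and all others had at least 56. The change was 3.23 ± 1.76 in luminal cells (edgeR quasi-likelihood FDR 0.373) and -0.46 ± 1.36 in basal cells (FDR 0.926), the largest luminal change of the list and the one with the largest error. It was 2.26 ± 1.77 without luminal duct replicate 3, and without replicate 1 the duct group holds 0 counts, so no change is given. In basal cells it was 0.12 without basal TEB replicate 1. E2f1, the activating E2F factor of the G1/S border, was at 6.56, 10.2 and 11 CPM in basal duct, 32.7, 24.5 and 15.5 in basal TEB, 6.74 and 10.2 in luminal duct and 19, 21.9 and 21.2 in luminal TEB. Both comparisons were separate. Its change was 1.39 ± 0.37 in basal cells (edgeR quasi-likelihood FDR 0.109) and 1.29 ± 0.42 in luminal cells (FDR 0.155).

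**Figure D4:**
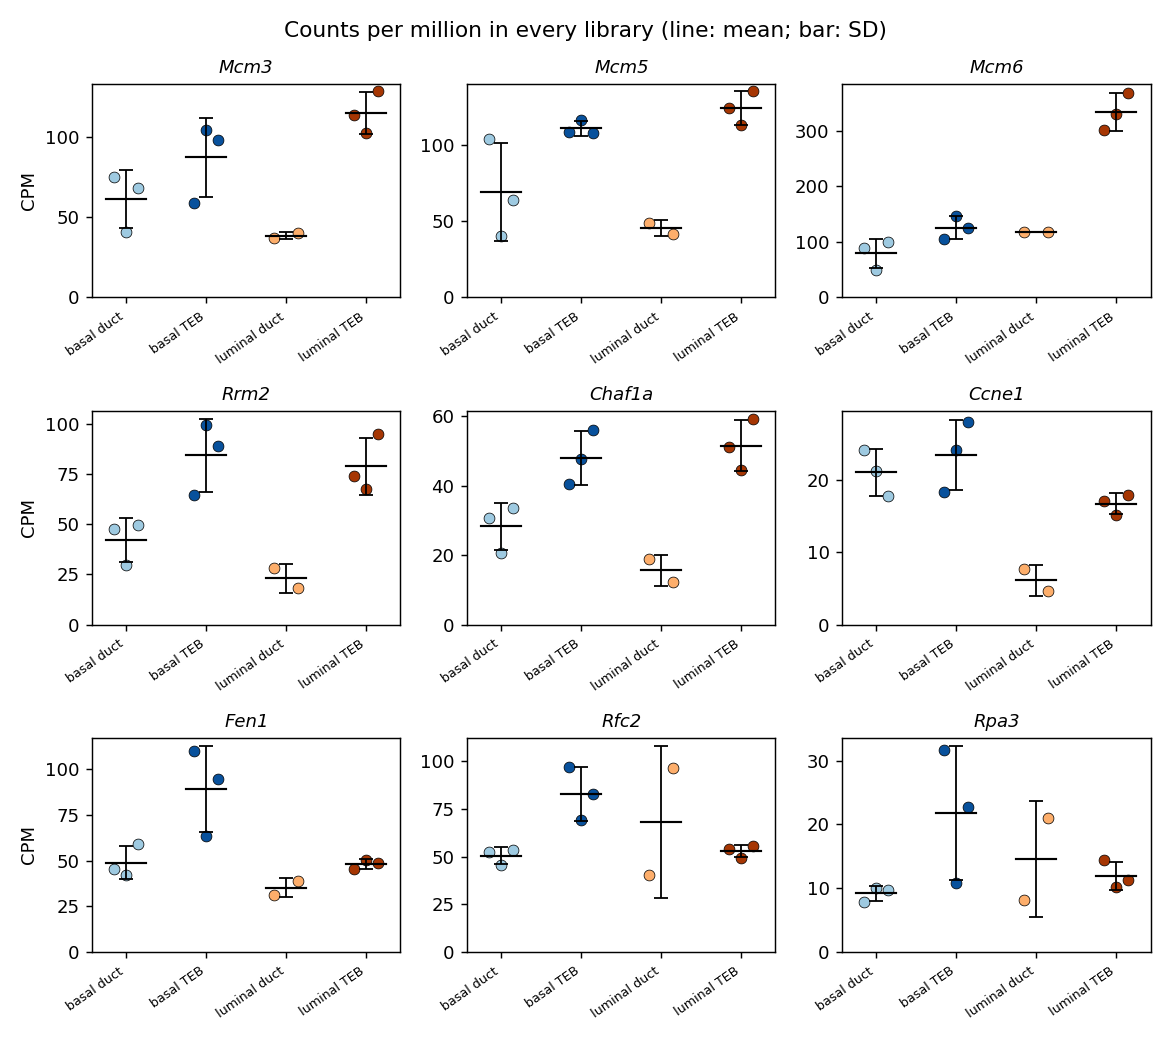
CPM of 9 genes in every library, with a horizontal line for the mean and a bar for the SD of each group. Mcm3, Mcm5, Mcm6, Rrm2 and Chaf1a show luminal TEB points above luminal duct points, Ccne1 is lowest in luminal duct, Fen1 is highest in basal TEB, and for Rfc2 and Rpa3 the 2 luminal duct libraries lie on either side of luminal TEB.

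Whether the change from duct to TEB differed between cell types was tested as an interaction, and 0 of the 41 genes passed an FDR of 0.05 by edgeR's quasi-likelihood test, where 0.443% of all genes did. The likelihood ratio test of edgeR, DESeq2 and limma voom also gave 0. The difference (basal change minus luminal change) was negative for 30 genes and positive for 11, where 44.9% of all genes were positive. Its median was -0.57, against -0.13 over all genes. At an unadjusted p below 0.05, 5 were negative, against 8.02% of all genes, and 2 positive, against 6.71%. The 5 were Cdc6 (-2.03 ± 0.73, edgeR quasi-likelihood FDR 0.234), Mcm3 (-1.07 ± 0.39), Mcm6 (-0.84 ± 0.36), Chaf1a (-0.96 ± 0.38) and Ccne1 (-1.29 ± 0.47). The positive ones were Rfc2 (1.08 ± 0.40) and Rpa3 (1.53 ± 0.68), both high in luminal duct replicate 3. All 6 MCM subunits and all 6 polymerase genes had negative differences. Without both libraries of the highest mitochondrial share, an alternative chosen after seeing the data, the median was -0.31, against -0.20 over all genes. The genes that passed the threshold in luminal cells were thus not shown to change more there than in basal cells.

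Compared within the same structure, few of the genes differed between basal and luminal cells. In ducts, 1 of the 41 did, where 22.3% of all genes differed. It was Ccne1, 3.43-fold higher in basal cells (1.78 ± 0.37, edgeR quasi-likelihood FDR 0.00411). In TEBs, 4 of the 41 differed, where 25.1% of all genes did. For basal minus luminal TEBs, Mcm6 differed by -1.41 ± 0.24 (edgeR quasi-likelihood FDR 0.000942) and Mcm2 by -1.09 ± 0.37 (FDR 0.0478). Fen1 was higher in basal TEBs (0.89 ± 0.23, edgeR quasi-likelihood FDR 0.012), as was Rpa2 (0.93 ± 0.24, FDR 0.0126). Mcm6 remained called without any 1 library, and Fen1, Rpa2 and Mcm2 did not in all cases. The median difference over the 41 genes was 0.44 in ducts and -0.05 in TEBs, against 0.08 and 0.04 over all genes.

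Levels per length, as RPKM averaged over the means of the 4 groups, spanned from 126.7 for Pcna to 1.42 for Ccne2. After Pcna and Mcm6 came Rfc2 (41.9), Mcm7 (34.7) and Rrm1 (28.4), then Mcm3, Tk1 and Rrm2 at 26.2 each. The scarcest were Orc1 (2.14), Cdc6 (2.13), Gins3 (1.97) and Ccne2, of which Orc1 and Cdc6 act early in licensing. Mcm2 (16.6 RPKM) was below the 5 other ring subunits (24.6 to 56.6 RPKM), although the ring holds a single copy of each. The 11 members whose range overlaps another protein-coding gene (Orc1, Mcm7, Cdc45, Gins2, Rfc4, Lig1, Fen1, Tk1, Chaf1a, Ccne2 and E2f1) may share reads with it, as the strand was not kept.

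Replication and G1/S genes outside the 41 were read from a list of 57, which holds further ORC, polymerase, checkpoint, histone chaperone and E2F genes. In basal cells 48 of the 57 changes were positive, against 46.9% of all genes, with a median of 0.53, and 1 gene rose, where 0.167% of all genes did. It was Topbp1, a scaffold for origin firing and checkpoint signalling, at 76.7, 57.7 and 85.2 CPM in basal duct and 134, 122 and 124 CPM in basal TEB (0.79 ± 0.17, edgeR quasi-likelihood FDR 0.0445). Topbp1 did not pass without basal duct replicate 2 (0.65, edgeR quasi-likelihood FDR 0.127) or without basal TEB replicate 1 (0.75, FDR 0.1003). In luminal cells 48 of the 57 were positive as well, against 52.1% of all genes, with a median of 0.54, and 1 rose and 1 fell, where 0.639% of all genes rose and 0.771% fell. Dut, the dUTPase that keeps uracil out of DNA, was at 25.8 and 23.3 CPM in luminal duct and 65, 61 and 65.7 CPM in luminal TEB (1.38 ± 0.28, edgeR quasi-likelihood FDR 0.0362). Rb1, the retinoblastoma protein that restrains E2F, was at 67.3 and 73.3 CPM in luminal duct and 32.6, 36.7 and 28.1 CPM in luminal TEB and fell in TEBs (-1.11 ± 0.22, edgeR quasi-likelihood FDR 0.0324). For all 3 genes the groups were separate. Neither luminal call held without luminal duct replicate 3, with changes of 1.31 for Dut (edgeR quasi-likelihood FDR 0.145) and -1.05 for Rb1 (FDR 0.104). Rb1 was at 27.1, 22.4 and 23.6 CPM in basal duct and 24.6, 23.6 and 20.3 CPM in basal TEB, where the groups overlapped.

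Past those, the largest basal changes of this list were Pclaf, a PCNA-binding factor (1.96 ± 0.44, edgeR quasi-likelihood FDR 0.0531), and Dna2, a nuclease of flap processing (1.84 ± 0.53, FDR 0.14). The most negative were Pold4, a small subunit of polymerase delta (-0.78 ± 0.48), and Rbl2, a pocket protein related to Rb1 (-0.49 ± 0.20). In luminal cells the largest were Dck, the deoxycytidine kinase (2.78 ± 1.06), and Chtf18, of an alternative clamp loader (2.61 ± 1.10), and Orc4 followed Rb1 at the negative end (-0.66 ± 0.31). None of these passed the threshold. In luminal duct replicates 1 and 3, Dck was at 8.24 and 0 CPM and Chtf18 at 6.76 and 0.0411 CPM, and without replicate 3 their changes were 1.81 and 1.64. A list of 26 mitosis genes was positive throughout, with medians of 0.79 in basal and 1.54 in luminal cells, where 46.9% and 52.1% of all genes were positive. Birc5 rose in basal cells (1.48 ± 0.31, edgeR quasi-likelihood FDR 0.0415), and Plk1 (1.93 ± 0.41, FDR 0.0439) and Cenpe (2.46 ± 0.52, FDR 0.0447) rose in luminal cells, against 0.167% and 0.639% of all genes. Neither Plk1 (2.10, edgeR quasi-likelihood FDR 0.119) nor Cenpe (2.37, FDR 0.183) passed without luminal duct replicate 3, and Birc5 did not without basal duct replicate 2 (1.22, FDR 0.104). Among 12 genes for D cyclins, their CDKs and CDK inhibitors, Ccnd1 alone passed in basal cells (1.73 ± 0.23, edgeR quasi-likelihood FDR 0.00374) and none in luminal cells.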

How the data were processed

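Read pairs of 80 bp were mapped to mm10 by the authors, who used Rsubread and its built-in RefSeq exons, and the deposited values are their raw counts per Entrez gene. Symbols were matched by Entrez identifier to the RefSeq gene table for GRCm38.p6. Genes were filtered with filterByExpr of edgeR 4.0.16 in R 4.3.3 (minimum count 10, minimum total 15), libraries were scaled by TMM, and 1 quasi-likelihood model of the 4 groups was fitted over 17370 genes with Benjamini-Hochberg adjustment. Standard errors were obtained as the size of the log2 fold change over the root of its F value. The common biological coefficient of variation was 0.704. RPKM uses the exon length of the count table. For 0 counts the limit stated is that of 3 counts, and it reflects counting error alone, as no molecular identifiers marked PCR duplicates.

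The 41 genes and the other lists were chosen with earlier results of these data known. All 41 are named, and values in every library are given for genes past the threshold between TEB and duct or in the interaction and, in each role group, for the gene with the highest mean RPKM and those with the largest change in each cell type. Rfc2 and the genes that differed between cell types were added after their values were seen. Replicate numbers of ducts and TEBs were not treated as pairs, since no label says that they mark a shared pool and not every correlation of same-numbered deviations passed 0.1 (0.11, 0.12 and 0.06 in basal and 0.16 and 0.07 in luminal cells). Alternatives tried were DESeq2 1.42.0 size factors and its Wald test, upper-quartile and no composition scaling, no filter, a mean CPM of at least 1, the likelihood ratio test, voom of limma 3.58.1 with and without quality weights, the replicate number as a block, a fit on no more than the groups compared, mitochondrial genes left out, another prior count, and each library left out in turn. The fits were checked on simulated counts. Chromatin accessibility and single-cell data were not analysed here. A list of marker genes of another cell type is not reported here.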

Additional observations from a re-analysis of the deposited data

How the results depend on the processing

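For TEB against duct in basal cells, the genes called numbered 6 by the likelihood ratio test, 7 by DESeq2, 1 by limma voom (Rrm2) and 2 (Rfc5 and Rrm2) without both libraries of the highest mitochondrial share, basal TEB replicate 1 and luminal duct replicate 3, a choice made after seeing the data. With each library left out in turn they ranged from 0 to 1, namely Fen1 without basal TEB replicate 2 and Chaf1b without luminal duct replicate 1. In luminal cells the number was 0 without composition scaling, 14 by the likelihood ratio test and 15 by DESeq2. It was 3 by voom with quality weights and 13 when only the groups compared were fitted. Fits with 1 luminal duct library are not counted for comparisons that use that group. Leaving out any other library gave 0 to 10, with 0 without any 1 luminal TEB library, 3 without basal TEB replicate 3 and 10 without basal duct replicate 2. The interaction gave 0 calls in every fit that kept both luminal duct libraries. Between cell types in ducts the number was 3 at a mean CPM of at least 1. The likelihood ratio test and DESeq2 gave 5, voom 2 and voom with quality weights 0. With a library of another group than luminal duct left out, the number was 1 to 6 (6 without basal duct replicate 2, 5 without basal TEB replicate 1). In TEBs it was 2 without composition scaling, 8 with quality weights, 9 with only the groups compared, and 1 to 6 with a library left out (1 without luminal TEB replicate 1, 2 without replicate 2). The share of all genes called higher in TEBs moved too. In basal cells it went from 0.167% to 1.21% by the likelihood ratio test, 1.30% by DESeq2 and 1.08% by limma voom. In luminal cells it went from 0.639% to 2.64% by the likelihood ratio test and 3.01% by DESeq2. It was 2.03% there with only the groups compared, 0.34% with quality weights, 1.11% without basal duct replicate 2 and 0.0288% without composition scaling. In ducts the share higher in basal cells went from 12.6% to 16.3% and 17.3% by those tests. In TEBs 4354 of all 17370 genes differed, 3712 without composition scaling and 7140 with quality weights. With only the groups compared, 5262 of 15234 differed. Without luminal TEB replicate 1 the number was 3062 of 17237, and without replicate 2 it was 3226 of 17207. The cause of these shifts was not tested.

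With the replicate number as a block, 0 genes were called in basal cells, 3 in luminal cells (Mcm6, Rrm2 and Chaf1a), 0 for the interaction, 1 in ducts and 3 in TEBs. In basal cells each library correlated best with the library of its own number in the other structure, a hint from the data and not from the design, and this did not hold for luminal duct replicate 3.

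Without composition scaling the median over all genes moved from 0.04 to 0.42 in luminal cells and from -0.03 to -0.16 in basal cells. The median of the 41 genes moved with it, to 1.55 and 0.58, to -1.06 for the interaction and -0.42 between cell types in TEBs. Relative to all genes it was 1.14 in luminal cells, against 1.16 with TMM, and 0.74 against 0.75 in basal cells.

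Sign changes occurred for genes with changes near 0 or a wide error. Gins3, basal TEB against basal duct, was -0.00712 with DESeq2 size factors, -0.00827 by DESeq2, -1.23 by voom, -0.13 with quality weights and -0.30 with the block. Pola1 in basal cells was 0.084, 0.23 and 0.044 by voom, quality weights and block, and 0.42 without both libraries of the highest mitochondrial share, where Ccne2 was 0.12. In luminal cells without composition scaling Gins4, Rfc2 and Rpa3 were 0.36, 0.083 and 0.16. Gins4 was 0.072 by voom, 0.13 with quality weights and 0.081 with the block, and Rpa3 was 0.063 and 0.15 by voom and quality weights. Without both libraries the 3 were 0.34, 0.42 and 0.56. With a library left out, the basal ranges were Gins3 -0.69 to 0.75, Pola1 -0.39 to 0.42, Ccne2 -1.38 to 0.12, Pold1 -0.15 to 0.49, Mcm7 -0.0635 to 0.43 and Rfc3 -0.26 to 0.70, and the luminal ones Gins4 -0.37 to 0.32, Rfc2 -0.87 to 0.40, Rpa3 -0.82 to 0.54, Orc1 -0.00217 to 1.02 and Gins3 -0.35 to 0.73. Luminal duct rests on 2 libraries, and low counts limit Ccne2 and Gins3.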
